A study of Mus musculus with 15 samples.

Results

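The 10 genes described here encode mucins and secreted defense proteins of luminal epithelium, and were all found among the 51826 genes of the deposited tables. They are Fcgbp, Muc1, Muc4, Muc15, Pigr, Ltf, Lcn2, Slpi, Wfdc18 and Agr2, and they were chosen by name and function with their levels in all groups of these libraries already known. Their own values are therefore a description, and the model fitted over all genes gives a size and an error for each one but no independent test. RNA-seq levels, as TPM (transcript abundance corrected for length and scaled to 1000000 in each library), were available for 15 libraries of 13 mice. There were 3 metaplastic carcinosarcomas (tumors with carcinoma and sarcoma-like parts) and 3 carcinomas of Trim24COE mice, 3 non-TRIM24 tumors and 4 MMTV-Cre control mammary glands.

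The labels give the strain of every mouse as FVB and no age, and the ages recorded in the study were not used here. Trim24COE mice carry MMTV-Cre, whose promoter is active in mammary epithelium, together with Trim24LSL, a FLAG-tagged mouse Trim24 transgene behind a floxed stop that came from a single founder. Control glands came from age-matched mice that carry MMTV-Cre alone, as the study describes them. The labels give the genotype of the non-TRIM24 tumors as unknown and call them spontaneous, and the study places them in FVB or FVB/129 mice that did not overexpress TRIM24. The class of each Trim24COE tumor is that of its label; the study's own record shows that its pathologists differed on tumors 89, 567 and 3956, and for the sequenced tumors other than 3956 it also holds a class called from RNA-seq. The study describes its aged Trim24COE and control cohorts as virgin females. It does not say whether the mice with non-TRIM24 tumors were virgin. Control gland 133 and carcinoma 3956 were each sequenced again in batch 2, the batch of every non-TRIM24 tumor, so batch and group are separated there only through those 2 repeats. The 2 libraries of mouse 133 differed by less than 1.4-fold for 8 of the 10 genes, with Muc15 at 0.644 times its first level and Agr2 near 0. Those of mouse 3956 did so for 5 of the 10 genes, with Muc4 at 0.306, Pigr at 0.321, Muc15 at 0.487 and Ltf at 1.46 times the first level and Agr2 at 0 in both.

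Trim24 itself, the gene the transgene carries, was listed at 10.6 to 14.5 TPM in the libraries labelled metaplastic carcinosarcoma, 13.9 to 24.1 TPM in those labelled Trim24COE carcinoma, 14.5 to 22.4 TPM in control glands and 5.34 to 10.04 TPM in non-TRIM24 tumors, over first libraries. The repeat libraries had 11.5 TPM for carcinoma 3956 and 11.1 TPM for gland 133. The Trim24COE tumors did not exceed the control glands at this level, with a fitted log2 difference of -0.24 ± 0.26 (SE; limma adjusted p = 0.557). Protein and RT-PCR measurements of Trim24 made in the study were not analysed here. Each comparison below uses the groups as labelled.

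Luminal cells line the ducts and alveoli of the mammary gland and secrete onto their apical surface. Membrane mucins such as Muc1, Muc4 and Muc15 coat that surface with glycosylated extracellular domains, Pigr carries polymeric IgA and IgM across the cell into milk, and Fcgbp is a large secreted mucus protein. Ltf (lactoferrin) and Lcn2 (lipocalin 2) withhold iron from bacteria, the latter by binding siderophores. Slpi, a secreted leukocyte protease inhibitor, and Wfdc18 belong to the WAP four-disulfide core family. Agr2 is an endoplasmic reticulum disulfide isomerase that mucin-secreting cells use.

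Across the 4 groups, the metaplastic carcinosarcomas had the lowest median for 9 of the 10 genes, Slpi being the exception. By its median, control glands stood highest for Fcgbp, Muc15 and Pigr, whereas non-TRIM24 tumors stood highest for the other 7. Summed over the 10 genes, the TPM made up 0.0209 to 0.0712% of all transcripts in the carcinosarcomas, 0.0196 to 1.52% in the carcinomas, 0.207 to 0.614% in control glands and 0.255 to 2.76% in non-TRIM24 tumors. Lcn2 alone held 3.09 to 30.3%, 40.9 to 76.8%, 12.9 to 36.9% and 68.3 to 73.6% of that sum in these groups, in the same order. In carcinosarcoma 897, Slpi held 663 of 712 TPM. Carcinomas spread from the lowest value of the study, 0.0196% in carcinoma 3956, to 1.52% in carcinoma 273_5. The highest value of the study was the 2.76% of tumor 219. Within the carcinomas, 89 was highest for 7 of the 10 genes and 273_5 for Lcn2, Slpi and Agr2, and 3956 was lowest for all 10.

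**Figure D1:**
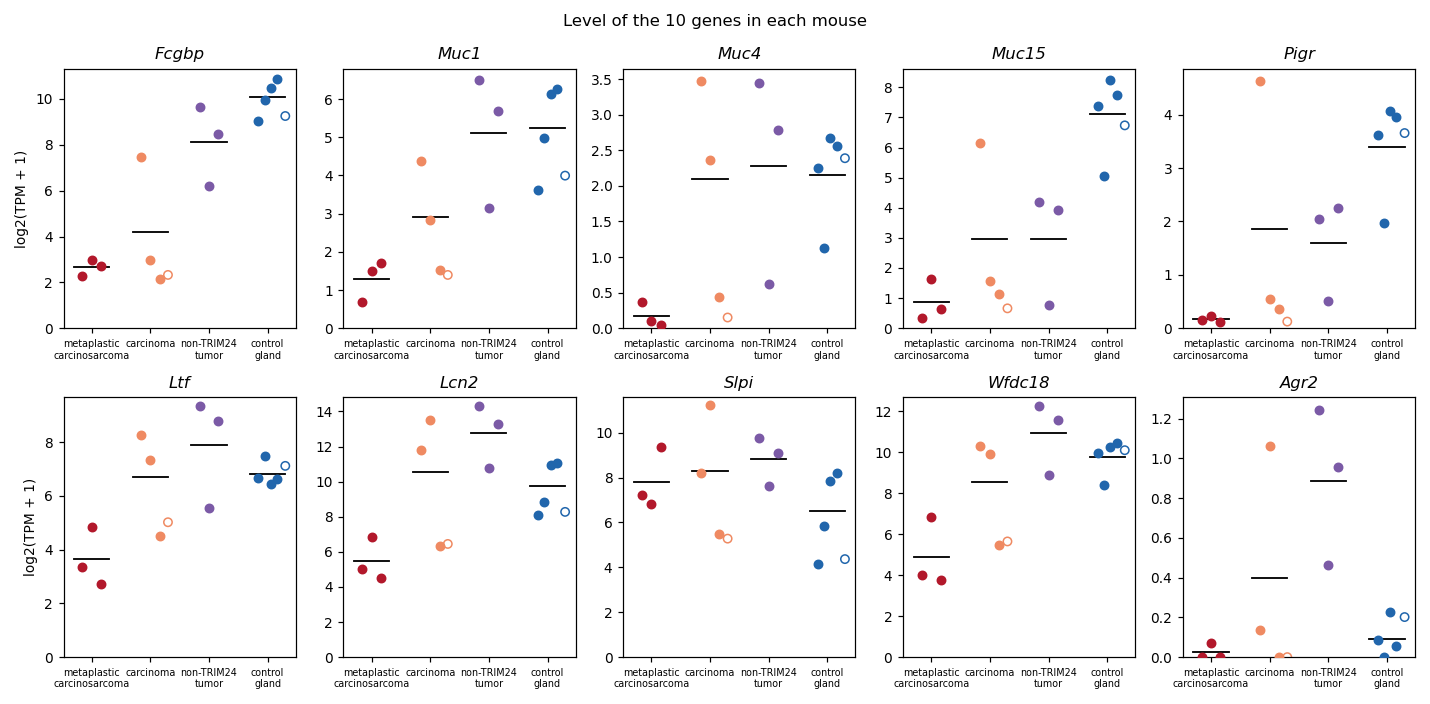
Level of each of the 10 genes as log2(TPM + 1), in metaplastic carcinosarcomas (n = 3 mice), Trim24COE carcinomas (n = 3), non-TRIM24 tumors (n = 3) and control glands (n = 4). Filled points are first libraries, open points the repeat libraries of mice 133 and 3956, and lines the group means of first libraries; the vertical axis starts at 0 in each panel and its top differs between panels. Carcinosarcomas sit below every control gland for all genes but Slpi and Agr2.

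Fcgbp had the largest fitted difference between carcinosarcomas and glands of the 9 genes tested. Control glands 133, 392, 417_3 and 517_3 had 519, 994, 1432 and 1893 TPM. The carcinosarcomas 64, 567 and 897 had 3.88, 6.81 and 5.62 TPM. In the carcinomas it was 177, 6.80 and 3.37 TPM for 89, 273_5 and 3956, so that all 6 Trim24COE tumors lay below every gland and only tumor 89 kept a level above 10 TPM. Non-TRIM24 tumors 219, FVB001 and FVB002 had 795, 73.6 and 352 TPM, a range that overlapped the glands. Relative to control glands, the fitted log2 difference was -7.43 ± 0.44 in carcinosarcomas, -5.90 ± 1.17 in carcinomas and -2.13 ± 1.09 in non-TRIM24 tumors. All folds here are on the log2(TPM + 1) scale, with standard errors, and understate the change of low genes. Fcgbp (ENSMUSG00000047730.17) lies at chr7:28071236-28120862 on the plus strand of GRCm38, in the GENCODE M21 annotation that is used for all positions here.

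Among the membrane mucins, Muc1 (chr3:89229057-89233381, plus strand) was listed at 0.61, 1.85 and 2.26 TPM in carcinosarcomas 64, 567 and 897. Control glands 133, 392, 417_3 and 517_3 had 11.3, 30.3, 68.8 and 76.3 TPM of it. Carcinomas 89, 273_5 and 3956 had 19.8, 6.09 and 1.87 TPM. Muc1 thus overlapped between the carcinomas and both other groups of batch 1, and tumors 219, FVB001 and FVB002 spanned the gland range at 90.0, 7.89 and 50.2 TPM. Its fitted difference from control glands was -3.95 ± 0.65 in carcinosarcomas and -2.34 ± 0.82 in carcinomas, against -0.22 ± 0.90 in non-TRIM24 tumors.

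Muc15 (chr2:110721340-110739527, plus strand) was at 164, 32.5, 299 and 216 TPM in control glands 133, 392, 417_3 and 517_3. Carcinosarcomas 64, 567 and 897 held 0.27, 2.12 and 0.55 TPM. Of the carcinomas, 89 stood apart at 69.5 TPM, above gland 392, while 273_5 and 3956 had 1.98 and 1.19 TPM. Muc15 was the only gene of the 10 that was below every gland in the non-TRIM24 tumors too, at 17.1, 0.71 and 14.3 TPM. The fitted differences from control glands were -6.23 ± 0.73, -4.16 ± 1.26 and -3.55 ± 1.19 for carcinosarcomas, carcinomas and non-TRIM24 tumors. Ano3 overlaps the Muc15 locus on the opposite strand, and was at 0.53 TPM or less in all 15 libraries.

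Muc4 (chr16:32735886-32782391, plus strand) had the lowest mean of the 3 membrane mucins in all 4 groups. It was listed at 0.29, 0.07 and 0.03 TPM in the carcinosarcomas, and at 3.77, 1.19, 5.4 and 4.88 TPM in control glands 133, 392, 417_3 and 517_3. Carcinomas 89 and 273_5 had 10.1 and 4.15 TPM and carcinoma 3956 had 0.36 TPM, so the first libraries of the carcinomas lay above every carcinosarcoma. The repeat library of carcinoma 3956 had 0.11 TPM, inside the range of the carcinosarcomas. In non-TRIM24 tumors 219, FVB001 and FVB002 it was at 9.85, 0.54 and 5.88 TPM. Its fitted difference from control glands was -1.99 ± 0.40 in carcinosarcomas and -0.06 ± 0.72 in carcinomas. Muc20, another mucin whose gene overlaps Muc4 on the opposite strand, ran between 0.06 and 56.7 TPM over all 15 libraries, and the use of strand in the counting is not given in the sources used here.

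Pigr (chr1:130826684-130852249, plus strand) was at 11.2, 2.91, 15.8 and 14.4 TPM in control glands 133, 392, 417_3 and 517_3, and at 0.11, 0.17 and 0.09 TPM in carcinosarcomas 64, 567 and 897. Carcinoma 89 had 23.9 TPM, more than any gland, but carcinomas 273_5 and 3956 had 0.47 and 0.28 TPM. The repeat library of 3956 was at 0.09 TPM, level with carcinosarcoma 897. The non-TRIM24 tumors had 3.12, 0.42 and 3.74 TPM. Pigr therefore split the carcinomas in the same manner as Fcgbp and Muc15, with tumor 89 far above tumors 273_5 and 3956. For Fcgbp, tumor 89 still lay below every gland. From control glands it differed by -3.23 ± 0.51 in carcinosarcomas and by -1.55 ± 1.06 in carcinomas.

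Lcn2 (chr2:32384633-32388252, minus strand) was the most abundant of the 10 genes in 10 of the 15 libraries. Carcinosarcomas 64, 567 and 897 had 32.0, 114 and 22.01 TPM of it. Carcinomas 89 and 273_5 had 3605 and 11702 TPM, and carcinoma 3956 had 80.3 TPM. In control glands 133, 392, 417_3 and 517_3 the level was 268, 455, 1954 and 2160 TPM, which lay above every carcinosarcoma and below both high carcinomas. Non-TRIM24 tumors 219, FVB001 and FVB002 reached 20296, 1739 and 10172 TPM, and in tumor 219 no other gene of the library was listed higher. The fitted differences from control glands were -4.26 ± 0.86 in carcinosarcomas, 0.83 ± 1.60 in carcinomas and 3.04 ± 1.45 in non-TRIM24 tumors.

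Ltf (chr9:111019271-111042767, plus strand) had the narrowest spread over control glands, at 99.6, 180, 85.6 and 98.6 TPM. Carcinosarcomas 64, 567 and 897 had 9.10, 27.9 and 5.67 TPM, all below the lowest gland. In carcinomas 89, 273_5 and 3956 it was at 310, 162 and 21.5 TPM, and in the non-TRIM24 tumors at 644, 45.3 and 440 TPM. Both tumor groups straddled the gland range. Its fitted difference from control glands was -3.17 ± 0.51 in carcinosarcomas and -0.10 ± 0.81 in carcinomas.

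Wfdc18 (chr11:83709015-83711348, plus strand) was at 978, 333, 1204 and 1387 TPM in control glands 133, 392, 417_3 and 517_3. The carcinosarcomas had 15.3, 111 and 12.7 TPM. Carcinomas 89 and 273_5, at 1249 and 969 TPM, were inside the gland range, and carcinoma 3956 at 43.4 TPM was inside that of the carcinosarcomas. Non-TRIM24 tumors 219, FVB001 and FVB002 had 4852, 479 and 3073 TPM. The fitted difference from control glands was -4.88 ± 0.79 in carcinosarcomas and -1.19 ± 1.13 in carcinomas.

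Slpi (chr2:164354070-164389095, minus strand) was the only one of the 9 genes tested for which carcinosarcomas and glands overlapped. Tumors 64, 567 and 897 had 148, 112 and 663 TPM. Control glands 133, 392, 417_3 and 517_3 had 16.8, 56.9, 229 and 289 TPM. Tumor 897 was higher than any gland, and the others lay inside the gland range. Carcinomas 89, 273_5 and 3956 had 295, 2373 and 43.9 TPM, and the non-TRIM24 tumors 879, 198 and 540 TPM. Its fitted differences from control glands were 1.30 ± 1.03, 1.80 ± 1.41 and 2.42 ± 1.27 for carcinosarcomas, carcinomas and non-TRIM24 tumors. Lcn2 exceeded Slpi by a factor of 7.47 to 16 in control glands and of 8.78 to 23.1 in non-TRIM24 tumors. In the carcinosarcomas the ratio of these levels was 0.216, 1.02 and 0.0332, and in carcinomas 89, 273_5 and 3956 it was 12.2, 4.93 and 1.83.

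Agr2 (chr12:35992907-36004087, plus strand) was close to 0 throughout. It was listed at 0, 0.05 and 0 TPM in carcinosarcomas and at 0.17 TPM or less in control glands. Carcinoma 273_5 had 1.09 TPM, and non-TRIM24 tumors 219, FVB001 and FVB002 had 1.37, 0.38 and 0.94 TPM. These are the only libraries above 0.20 TPM, and Agr2 passed the filter on low values in no comparison.

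Metaplastic carcinosarcomas were compared with control glands to describe how the tumors differ from the tissue of origin. Of the 10 genes, 9 passed the filter, and 8 of these were lower past the limma threshold of adjusted p = 0.05, while 13.1% of all 15287 genes tested were. The same 8 genes, all but Slpi among the 9, had every carcinosarcoma below every gland, against 21.6% of the genes tested. The median fitted log2 difference of the 9 was -3.95, and that of all genes tested was -0.12. Since the genes were chosen with these values known, no inference is drawn from the counts.

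Markers of the epithelium itself moved with this result. Of 12 epithelial markers, 10 were down-regulated in the carcinosarcomas and none up-regulated (median log2 difference -4.0), and their summed level was 329 to 1419 TPM against 1169 to 5888 TPM in glands. Fewer epithelial cells and less RNA per cell cannot be told apart in bulk tissue. With the mean level of these markers as a covariate, 1 of the 9 genes, Fcgbp, remained past the threshold at -5.36 (adjusted p = 0.0158), and Lcn2 turned to 0.88 (adjusted p = 0.223). In the same fit, genes called lower went from 2008 to 486 of 15287, and genes called higher from 1503 to 1328. Milk protein genes fell for 3 of 8, adipocyte markers for 3 of 10, and mesenchymal markers rose for 7 of 10, macrophage markers for 7 of 10 and neutrophil markers for 5 of the 6 tested. With the mean level of the adipocyte markers as a covariate, 8 of the 9 genes were still past the threshold in this comparison and Slpi turned to -1.10. Genes called lower then went from 2008 to 3341 of 15287. This covariate did not overlap between the groups either, at 2.14 to 3.45 in carcinosarcomas and 4.36 to 10.3 in glands. The part of the milk protein, mesenchymal, macrophage and neutrophil markers in the result was not tested.

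**Figure D2:**
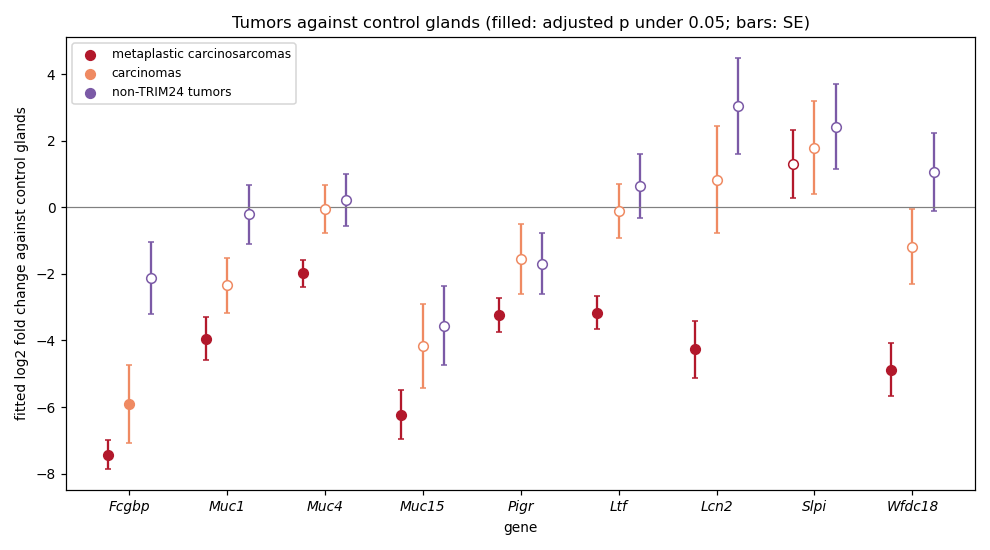
Fitted log2 fold change of the 9 genes that passed the filter, for each tumor group against control glands; points are estimates on the log2(TPM + 1) scale, bars are ± 1 SE, and filled points have an adjusted p under 0.05. Carcinosarcomas lie between -7.43 and -1.99 for 8 genes and at 1.30 for Slpi, and the estimates of non-TRIM24 tumors reach 3.04 for Lcn2.

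Carcinomas against control glands left only Fcgbp past the threshold, 1 of 9 tested, where 1.92% of the 15479 genes tested were lower. The 9 fitted differences had a median of -1.19 and ran from -5.90 to 1.80. That single call ended in 5 of 7 fits that left out 1 mouse, namely 273_5, 3956, 392, 417_3 or 517_3. In that order, 74 of 16707, 30 of 16594, 200 of 15009, 44 of 15021 and 36 of 15143 genes were called lower. The main fit called 297 of 15479 lower. Without carcinoma 89, 2 of the 10 genes were called, Fcgbp and Muc15, where 171 of 16493 genes tested were lower. With both tumor classes pooled, 3 of 9 genes, Fcgbp, Muc1 and Muc15, were lower than in control glands (9.13% of 15196 genes), and without carcinoma 89 there were 5, with Pigr at -3.12 and Wfdc18 at -3.75 added, while the share of all genes called lower went to 11.4%. The epithelial markers were at 3498 to 7896 TPM in carcinomas, 1 of 12 rose and none fell.

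Metaplastic carcinosarcomas and carcinomas were compared to ask what separates the 2 tumor classes of the same model. Only 7 of the genes passed the filter and none was past the threshold, in a comparison where 0.698% of 14193 genes were called. By limma, 3 of the 7 had an unadjusted p under 0.05, as did 2126 of all 14193 genes. All 7 fitted differences were negative, from -5.09 ± 1.73 for Lcn2 and -3.69 ± 1.39 for Wfdc18 to -0.50 ± 1.398 for Slpi, with a median of -2.08 against -0.10 over all genes. No gene of the 7 had every carcinosarcoma below every carcinoma, whereas 14.4% of the genes tested did. Muc4 and Pigr, which did not pass the filter, had no overlap in the first libraries, but the repeat library of carcinoma 3956 lay inside the carcinosarcoma range for both.

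Without carcinoma 3956, 8 genes passed the filter and 3 were past the threshold, where the share of all genes called rose to 1.96%. Lcn2 was then at -7.20 (adjusted p = 0.0189) and Ltf at -4.17 (adjusted p = 0.0385). Muc4, the third, entered only because the filter then asked for 2 libraries, which carcinomas 89 and 273_5 alone met. Fcgbp, Muc1, Muc15, Slpi and Wfdc18 were not called. In tumor 3956 the 12 epithelial markers summed to 7896 TPM, the highest sum of any first library, while the 10 genes summed to 196 TPM, the lowest. By the mean log2(TPM + 1) of the markers, tumor 3956 stood at 7.86, below glands 417_3 and 517_3 at 8.18 and 8.19 and tumor 219 at 8.16. The ratio of these sums was 0.0248 in tumor 3956 and 0.0218 in its repeat library, 1.5 and 4.35 in carcinomas 89 and 273_5, 0.502 to 0.654 in the carcinosarcomas, 0.958 to 1.77 in control glands and 3.75 to 4.32 in non-TRIM24 tumors. Those ranges did not overlap between carcinosarcomas, glands and non-TRIM24 tumors. The genes were chosen with their levels known, and every non-TRIM24 tumor was in batch 2, so nothing is read from this. As given above, Lcn2 also held different shares of the sum of the 10 genes. The plot of the 10 genes beside epithelial markers shows both sums for each library.

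**Figure D3:**
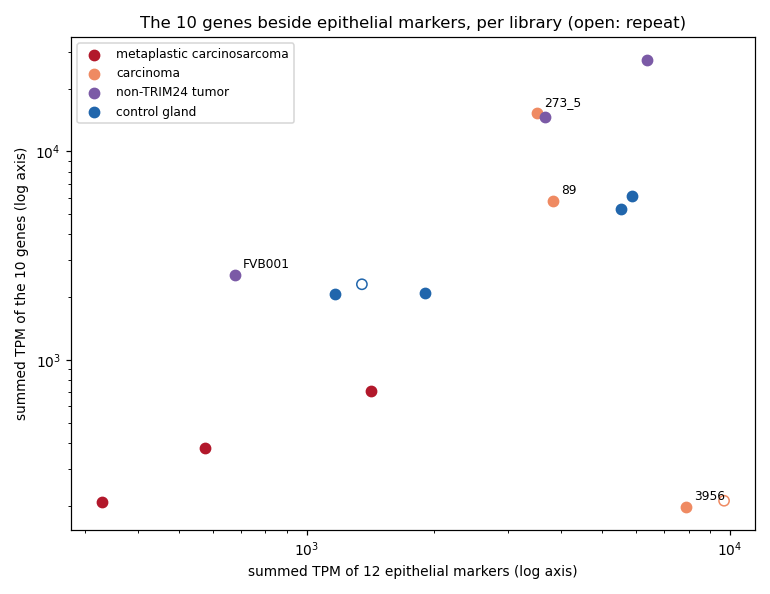
Summed TPM of the 10 genes (vertical, log axis) against the summed TPM of 12 epithelial markers (horizontal, log axis), 1 point per library; open points are repeat libraries. Carcinoma 3956 lies at 7896 and 196 TPM, and non-TRIM24 tumor FVB001, with markers at 679 TPM, still held 2545 TPM of the 10 genes.

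Non-TRIM24 tumors against control glands gave no gene of the 9 past the threshold by limma, with 0.709% of 16775 genes called. An unadjusted p under 0.05 was found for 1 of the 9 and for 3235 of all 16775 genes. The 9 fitted differences had a median of 0.21, from -3.55 for Muc15 to 3.04 for Lcn2. With the first libraries and no batch term, Muc15 passed at -4.14 (adjusted p = 0.0416). In that fit 1870 of 16544 genes tested were lower, against 85 of 16775 in the main fit. Tumor FVB001 had the lowest level of all 10 genes among the non-TRIM24 tumors, together with the fewest epithelial transcripts (679 TPM against 3660 and 6392 TPM) and adipocyte markers that summed to 55993 TPM. The part of those cells in its values was not tested.

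Carcinomas against non-TRIM24 tumors likewise gave 0 of 9, in a comparison that called 0.0298% of 16775 genes. The unadjusted limma p was under 0.05 for 2 of the 9 and for 2953 of all 16775 genes. Fcgbp differed by -3.79 ± 1.15 and Muc1 by -2.20 ± 0.95. Against the same non-TRIM24 tumors, the carcinosarcomas were lower past the threshold for 4 of 9 genes, where 1.52% of 16775 genes were. These were Lcn2 at -7.31 ± 1.56, Wfdc18 at -5.95 ± 1.26, Fcgbp at -5.31 ± 1.17 and Muc1 at -3.76 ± 0.97. The 4 calls depended on which mice entered, since 0 were left without mouse 64, 897, 219 or FVB002, 1 without 567, and 5 without FVB001 or 3956. Muc1 alone dropped out without 392 or 517_3 (adjusted p = 0.0529 and 0.0533). Genes called lower were 18 of 17841 without 64, 82 of 17819 without 897, 426 of 17808 without 219 and 11 of 17793 without FVB002. They were 56 of 17819 without 567, 300 of 17820 without FVB001 and 509 of 16531 without 3956, against 255 of 16775. None of the 4 calls was left with repeat libraries entered as independent (5 of 16775 genes lower) or with no filter on low values (68 of 40019). Upper-quartile scaling moved the genes called lower from 255 of 799 to 538 of 1007 here, and from 85 of 119 to 94 of 165 in non-TRIM24 tumors against glands. These comparisons share their control or tumor libraries with those above.

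Fcgbp, Muc1 and Wfdc18, 3 of the 4 genes that were lower in carcinosarcomas than in both control glands and non-TRIM24 tumors, are shown with the 250 bases before their RefSeq start (GRCm38.p6, 5′ to 3′ on the strand of the gene, with motif matches in capitals). The RefSeq table held 9 of the 10 genes, and Muc15 is named only.
Fcgbp, chr7:28070986-28071235, plus strand: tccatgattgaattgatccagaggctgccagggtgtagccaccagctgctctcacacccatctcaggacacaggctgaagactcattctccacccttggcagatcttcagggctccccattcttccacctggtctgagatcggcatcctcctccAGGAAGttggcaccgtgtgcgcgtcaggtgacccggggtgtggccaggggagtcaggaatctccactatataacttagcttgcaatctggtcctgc
Muc1, chr3:89228806-89229055, plus strand: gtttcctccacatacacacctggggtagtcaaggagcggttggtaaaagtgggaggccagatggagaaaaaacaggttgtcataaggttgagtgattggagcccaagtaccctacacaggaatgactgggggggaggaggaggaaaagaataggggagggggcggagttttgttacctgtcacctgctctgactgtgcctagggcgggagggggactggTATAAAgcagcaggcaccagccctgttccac
Wfdc18, chr11:83708754-83709003, plus strand: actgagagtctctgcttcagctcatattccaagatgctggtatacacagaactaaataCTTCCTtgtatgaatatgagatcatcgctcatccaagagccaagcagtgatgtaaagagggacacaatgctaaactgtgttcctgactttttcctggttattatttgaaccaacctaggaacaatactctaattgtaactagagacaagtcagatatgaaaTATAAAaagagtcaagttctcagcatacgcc
On both strands, the ETS core AGGAAG, the TATA box TATAAA, the C/EBP pattern TTGCNNAA and the STAT pattern TTCNNNGAA were searched. In capitals, Fcgbp holds 1 ETS match 96 to 91 bases before the start, Muc1 a TATA box at 31 to 26 bases, and Wfdc18 a TATA box at the same 31 to 26 bases and an ETS match 192 to 187 bases before it. Over the 9 promoters, 4 held an ETS match, 3 a TATA box, 3 the C/EBP pattern and none the STAT pattern. Among all 32851 promoters of the table those shares were 29.48%, 12.37%, 9.56% and 7.02%. No match bears on whether a factor binds.

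Other genes of the same families were listed separately, and were tested in the fit over all genes. In the other WAP four-disulfide core genes, 19 in number, 7 could be tested in carcinosarcomas against control glands. Of the 7, 1 rose and 1 fell, where 9.83% of all genes tested were higher and 13.1% lower. Wfdc17, a WAP gene that macrophages express, rose (39.7 to 155 TPM against 5.55 to 25.9 TPM; log2 difference 2.83 ± 0.60, adjusted p = 0.0145), and it rose as well in carcinomas (2.76 ± 0.55, adjusted p = 0.0384) and non-TRIM24 tumors (3.17 ± 0.60, adjusted p = 0.0287). Wfdc3 fell in the carcinosarcomas from 4.64 to 29.4 TPM in glands to 0.71 to 1.12 TPM (-2.78 ± 0.66, adjusted p = 0.021). Wfdc12 fell in the pooled Trim24COE tumors, at 0.04 to 0.82 TPM against 3.67 to 223 TPM (-4.49 ± 1.08, adjusted p = 0.0173). Against non-TRIM24 tumors, Wfdc5 was lower in carcinosarcomas (-2.29 ± 0.49, adjusted p = 0.0254). The median over the 7 was -1.08.

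Of the 14 other mucin family genes, 4 could be tested in the same comparison and 2 fell, where 13.1% of all genes tested did. Muc20 was at 0.06 to 0.35 TPM in the carcinosarcomas and 5.49 to 56.7 TPM in glands (-4.01 ± 0.81, adjusted p = 0.0119), and Cd164, a sialomucin of many cell types, at 92.3 to 162 against 234 to 473 TPM (-1.32 ± 0.33, adjusted p = 0.0257). None of the 4 was called in carcinomas against glands, where their median was -1.41.

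The other mucosal and neutrophil defense proteins went both ways in the carcinosarcomas, with 4 of 18 tested genes higher and 4 lower than in glands. Of all genes tested, 9.83% were higher and 13.1% lower. Higher were S100a9 (105 to 145 against 2.26 to 4.52 TPM; 4.84 ± 0.28, adjusted p = 0.000327) and S100a8 (4.63 ± 0.31, adjusted p = 0.000404), the subunits of calprotectin, together with Saa3, an acute-phase protein (4.31 ± 0.75, adjusted p = 0.00686), and the macrophage lysozyme Lyz2 (2.77 ± 0.40, adjusted p = 0.00357). Lower were Chil1, a chitinase-like protein (-4.62 ± 0.74, adjusted p = 0.00509), Hp, haptoglobin (-3.33 ± 0.57, adjusted p = 0.00646), complement C3 (-2.81 ± 0.55, adjusted p = 0.0107) and Defb1, an epithelial defensin (-2.99 ± 0.81, adjusted p = 0.0325). In carcinomas, S100a8, S100a9 and Saa3 rose by 5.78, 5.18 and 4.50 (adjusted p = 0.0239, 0.0278 and 0.046), 3 of 19 tested where 1.58% of all genes were higher, and none fell. S100a8 and S100a9 are also 2 of the 12 neutrophil markers, and Lyz2 is 1 of the 10 macrophage markers. Those neutrophil markers summed to 232 to 310 TPM in carcinosarcomas, 99.7 to 2188 TPM in carcinomas, 76.0 to 495 TPM in non-TRIM24 tumors and 9.86 to 22.5 TPM in glands.

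Polymeric immunoglobulin transport and plasma cell genes include chains of the IgA and IgM that Pigr carries, and other genes of B and plasma cells. Of 9 tested in carcinosarcomas, none rose and 3 fell, where 13.1% of all genes were lower, and their median was -3.00. The 3 that fell were Derl3, an endoplasmic reticulum factor of secretory cells (-2.22 ± 0.43, adjusted p = 0.0101), the IgM heavy chain Ighm (-3.90 ± 1.00, adjusted p = 0.0273) and Jchain, which joins polymeric IgA and IgM (-3.21 ± 0.92, adjusted p = 0.0395). In carcinomas 2 of 9 fell, where 1.92% of all genes were lower. They were the B cell receptor component Cd79a (-2.85 ± 0.53, adjusted p = 0.0299) and the kappa light chain Igkc (-3.71 ± 0.71, adjusted p = 0.0348). With all 6 Trim24COE tumors, 8 of 9 fell, where 9.13% of all genes were lower. The 6 plasma cell markers, all of which are genes of this list, summed to 85.8 to 643 TPM in carcinosarcomas and 922 to 8053 TPM in glands. Gland 392 held the 8053 TPM, and glands 133, 417_3 and 517_3 had 922, 1232 and 1447 TPM.

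For the trefoil, Agr family and secretory cell genes, 3 of 9 tested fell and 2 rose in carcinosarcomas against glands. Over all genes tested, 13.1% were lower and 9.83% higher. Spdef, a transcription factor of secretory epithelium, was at 0.14 to 0.21 TPM against 2.69 to 4.26 TPM (-1.89 ± 0.25, adjusted p = 0.00245), and it fell in carcinomas as well (-1.52 ± 0.32, adjusted p = 0.043). Bhlha15 and Xbp1, secretory cell transcription factors, fell by 1.13 and 1.09 on the log2 scale (adjusted p = 0.0099 and 0.0491), while Creb3l1 and Clca2 rose by 1.28 and 0.92 (adjusted p = 0.0311 and 0.0415).

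Among the 22 mucin O-glycosylation enzymes, 18 could be tested in carcinosarcomas against glands. Galnt6, which starts O-glycan chains, rose (3.69 to 5.65 against 0.46 to 1.03 TPM; 1.64 ± 0.26, adjusted p = 0.0048) with Galnt7, Galnt1 and the sialyltransferase St3gal4 (adjusted p = 0.0291, 0.0374 and 0.0266). In all, 5 of the 18 rose, to be read against the 9.83% of all genes above. A pair of enzymes went the other way, St6galnac2 (-2.89 ± 0.44, adjusted p = 0.0044) and Galnt3 (-2.03 ± 0.56, adjusted p = 0.0352). Galnt3 was also the only one of 17 tested to differ between the tumor classes, at 2.72 to 5.93 TPM in carcinosarcomas and 29.8 to 52.4 TPM in carcinomas (-2.89 ± 0.36, adjusted p = 0.0217). Galnt6 rose in carcinomas against glands too (1.63 ± 0.29, adjusted p = 0.0285).

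**Figure D4:**
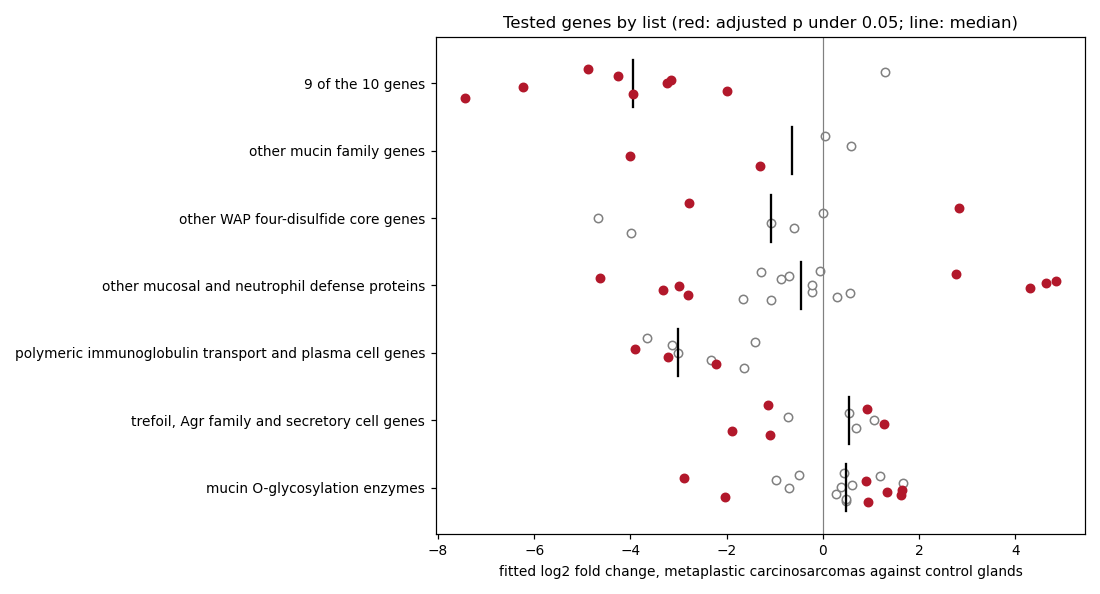
Fitted log2 fold change of the tested genes, metaplastic carcinosarcomas against control glands, with 1 row for 9 of the 10 genes and 1 for each list of other genes; red points have an adjusted p under 0.05 and the line is the median of the row. The top row has a median of -3.95, the other mucosal and neutrophil defense proteins spread from -4.62 to 4.84, and the O-glycosylation enzymes have a median of 0.48.

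Genes whose log2(TPM + 1) followed each of the 10 most closely were sought over the 10 first libraries of batch 1, among 16050 genes, by Pearson's r (Spearman's rho in brackets); these values describe likeness, share group and batch, and carry no test. Fcgbp was followed by Foxi1, r = 0.993 (0.939), Bglap3, r = 0.993 (0.875), and Atp6v1b1, r = 0.99 (0.939). Foxi1 is a transcription factor and Atp6v1b1 a proton pump subunit of ionocytes. Muc1 was followed by Ccdc129, r = 0.987 (0.964), Trnp1 and Wnt5b, and Muc15 by Slc28a3, r = 0.988 (0.964), Slc1a1 and Cadps2. Pigr was most like Gjb2, a gap junction connexin, r = 0.994 (0.988), then Rnf225 and Sh3rf2. Muc4 was closest to Sars2, r = 0.992 (0.976), then Slc5a9 and Ell3.

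For the secreted defense proteins, Lcn2 was closest to Plekhs1, r = 0.978 (0.964), Ttc39a and Large2. Ltf was followed by Hp, r = 0.966 (0.879), Poldip2 and Fxyd3. Wfdc18 was closest to Cited4, r = 0.977 (0.879), Fabp3 and BC006965. Slpi had the weakest best match of the 10, Btf3 at r = 0.953 (0.915), before Sub1 and Mphosph10. Agr2, at levels near 0, was followed by Slc6a15, r = 0.977 (0.888), Cttnbp2 and Slc30a2. No gene was named for more than 1 of the 10.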

How the data were processed

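Levels were taken from 2 deposited tables of 15 libraries. Per the authors, reads were trimmed with Trimmomatic, aligned to GRCm38 with STAR under GENCODE M14 and quantified with RSEM as TPM; the submitters' processing notes name TopHat, Cufflinks, DESeq and edgeR as well, without versions. The TPM sum to 1000000 in each library to within 1, so read depth is unknown, no counting error can be given, and a rise in very abundant genes lowers all others. The sample labels name a stranded total RNA kit and the study's methods another.

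Group and tumor class came from the sample labels, also where the study's pathologists differed. A gene entered a comparison if it reached 1 TPM in a number of libraries equal to the size of the smaller group; levels were fitted as log2(TPM + 1) with limma 3.58.1 in R 4.3.3 (lmFit, eBayes with trend, two-sided), adjusted by Benjamini-Hochberg over all genes tested at a threshold of 0.05, and tested on simulated data. Batch 1 comparisons used first libraries of the groups compared. Where non-TRIM24 tumors entered, the fit took 15 libraries, a term for batch, and repeats linked within mouse (correlation 0.951). Each tumor or gland is from a separate mouse, so p-values measure the spread between mice. Correlations and motif counts were made in Python 3.11.15 with scipy 1.17.1.

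The 10 genes and all lists were chosen with earlier results of these data known. Other genes named are those of each list past the threshold (up to 4 per direction by adjusted p). Trim24 and the 3 genes most like each of the 10 are also named. For likeness, symbols of Gm with digits, symbols ending in Rik and genes without a symbol were left out. Muc20 and Ano3 are named for overlapping the loci. Gene identifiers, with versions, matched GENCODE M21 for all 10. Alternatives were a pseudocount of 0.1 TPM, no filter, upper-quartile scaling, other fits and leaving out each mouse.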

Additional observations from a re-analysis of the deposited data

Results flagged for a closer look

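In the 6 Trim24COE tumors, 4 of the 10 genes had a tumor far from the other 5 on the log2(TPM + 1) scale. The gap to the nearest tumor, as a share of the whole range, was 0.843 for Fcgbp, 0.776 for Muc15 and 0.904 for Pigr, each time with carcinoma 89 on the high side, and 0.871 for Agr2 with carcinoma 273_5 on the high side. In all, 20 combinations of a gene with either the control glands or these tumors were examined. Chance alone sets about 1 in 20 such groups apart, but these genes were chosen with their levels known and 3 of the 4 cases rest on the same tumor, so nothing is read from their number.

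The difference from control glands was itself different between metaplastic carcinosarcomas and non-TRIM24 tumors for 4 genes, by the limma fit of one tumor group against the other. The fitted log2 difference was -7.31 for Lcn2 (adjusted p = 0.0253), -5.95 for Wfdc18 (adjusted p = 0.0246), -5.31 for Fcgbp (adjusted p = 0.0271) and -3.76 for Muc1 (adjusted p = 0.0437). In that fit 1.52% of 16775 genes were lower. Every carcinosarcoma was below every non-TRIM24 tumor for 8 of the 10 genes, these 4 among them. The share of all genes that separated in this way was not counted. None of the 4 calls was left with no filter on low values or with repeats entered as independent. The genes were chosen with these levels known, and the tumor groups were sequenced in different batches.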

How the results depend on the processing

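Over the members of the set, counts past the threshold changed as follows. For carcinosarcomas against control glands, the 8 calls became 1 with an epithelial covariate, 7 with no filter (Muc4 at adjusted p = 0.0653) and 6 with all groups of batch 1 in one fit (Muc4 at 0.0507 and Lcn2 at 0.0656). In that order, 486 of 15287, 896 of 39123 and 1909 of 16050 genes were called lower, against 2008 of 15287 in the main fit. When a mouse was left out the calls ran from 7 to 8, and genes called lower from 742 of 16525 to 1914 of 14760. For pooled Trim24COE tumors against glands, the 3 became 1 with an adipocyte covariate, with Muc1 at -3.36 and Muc15 at -4.97 (3 to 5 on leaving out a mouse). That covariate took the genes called lower from 1387 to 735 of 15196, and leaving out a mouse gave 940 of 15664 to 1688 of 14843. For carcinomas against glands, the 1 became 0 with no filter, 2 with an epithelial covariate and 0 with an adipocyte covariate (0 to 2). Genes called lower were then 22 of 38798, 930 of 15479 and 494 of 15479, against 297 of 15479 in the main fit. Leaving out a mouse gave 30 of 16594 to 345 of 15003. For carcinosarcomas against carcinomas, leaving out a mouse gave 0 to 3, while genes called in either direction ran from 0 of 15019 to 293 of 14941. Non-TRIM24 tumors against glands gave 1 with first libraries and no batch term, where 1870 of 16544 genes were lower, against 85 of 16775 in the main fit. On leaving out a mouse they gave 0 to 0, with 7 of 17793 to 476 of 16344 genes called. Carcinomas against non-TRIM24 tumors also gave 0 to 0 on leaving out a mouse, with 2 of 16525 to 89 of 17808 genes called. The 4 calls for carcinosarcomas against non-TRIM24 tumors became 0 with no filter and 0 with repeats entered as independent, where Lcn2 was at -10.06 and Muc1 at -5.19 (0 to 5). Genes called lower were then 68 of 40019 and 5 of 16775, against 255 of 16775 in the main fit. The 4 calls became 5, by Ltf, with 0.1 TPM added, upper-quartile scaling, or first libraries and no batch term (adjusted p = 0.0475, 0.0407 and 0.0215). There, 362 of 16775, 538 of 16775 and 694 of 16544 genes were called lower. The causes were not tested.

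Of 948 refitted gene differences, 43 turned sign, none of them past the threshold in the alternative. With an epithelial covariate these were, for carcinosarcomas against carcinomas, Muc15 (0.68), Ltf (0.94) and Wfdc18 (2.03). Against control glands they were Lcn2 in pooled tumors (0.25), Ltf in carcinomas (0.043) and Lcn2 in carcinosarcomas (0.88). That covariate did not overlap between carcinosarcomas and either carcinomas or glands, so fits of carcinosarcomas against either cannot separate it from group. An adipocyte covariate turned Fcgbp (1.13), Muc15 (0.60) and Slpi (0.46) in carcinosarcomas against carcinomas, Ltf in carcinomas (0.58) and Slpi in carcinosarcomas (-1.10) against glands. Muc1 in non-TRIM24 tumors against glands turned with upper-quartile scaling (0.056) and unlinked repeats (1.22), and Pigr in carcinomas against non-TRIM24 tumors with 0.1 TPM (-0.73), upper-quartile scaling (-0.12) and unlinked repeats (-0.71). On leaving out a mouse, Fcgbp ran from -2.56 to 0.11 and Slpi from -1.91 to 0.96 in carcinosarcomas against carcinomas; in carcinomas against glands Muc4 ran from -0.75 to 0.77, Ltf from -0.89 to 1.01, Lcn2 from -0.65 to 2.94 and Wfdc18 from -2.05 to 0.36; in non-TRIM24 tumors against glands Muc1 ran from -0.91 to 0.77, Muc4 from -0.37 to 1.04 and Ltf from -0.085 to 1.82. In carcinomas against non-TRIM24 tumors, Muc4 ran from -1.18 to 0.78, Muc15 from -2.14 to 0.28, Pigr from -1.27 to 1.05, Ltf from -1.92 to 0.39 and Slpi from -2.13 to 0.98. Upper-quartile scaling moved the median of all genes from -0.27 to -0.04, from 0.27 to -0.02 and from 0.13 to -0.07 in the 3 comparisons with non-TRIM24 tumors. No paired analysis was possible because the groups share no replicate numbers. Groups of 3 or 4 mice and an unknown read depth limit the precision.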
